A study of Capra hircus with 4 samples.

Results

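The 10 genes described here are HIF1A, the prolyl hydroxylase genes EGLN1 and EGLN3, and 7 genes that low oxygen is known to induce, namely BNIP3, BNIP3L, PDK1, VEGFA, ADM, NDRG1 and CA9. They were taken by symbol from the 20326 genes of the deposited tables, and 10 of 10 were found. RNA came from stem cells of the secondary hair follicle of the cashmere goat (Capra hircus), isolated from dorsal skin and then cultured, in both phases. Mid anagen was sampled in October and early anagen in April, with 1 female and 1 male library in each phase. Phase thus cannot be told apart from month, or from anything else that differed between the April and October samplings. Anagen is the part of the hair cycle in which the shaft grows, and the secondary follicles make the fine cashmere undercoat. The labels call the 2 libraries of a phase biological replicates and do not say how many animals or cultures stand behind each, so the p-values measure the spread between these libraries only.

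Hypoxia inducible factors are transcription factors made of an oxygen-regulated alpha subunit, such as the product of HIF1A, and a constant partner encoded by ARNT. When oxygen is plentiful, the EGLN enzymes hydroxylate prolines of the alpha subunit, and the VHL ubiquitin ligase then marks it for destruction. Most of this control acts on the protein, so the HIF1A transcript is a poor gauge of HIF activity, while the transcripts of target genes follow it more closely. The targets shift cells towards glycolysis, remove mitochondria, export acid and call in blood vessels. EGLN3 is itself a target and forms a feedback loop.

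The values are deposited abundances per gene that behave as normalised for transcript length, and the number of reads behind them is unknown. The column totals were 933211 and 844960 in the mid female and mid male libraries, and 1068429 and 1186966 in the early female and early male libraries. Markers of basal epithelium were abundant, with KRT14, a basal keratin, between 8956 and 23511 over the 4 libraries, while CDH5, an endothelial cadherin, and PTPRC, the pan-leukocyte antigen, were listed at 0. Of 7 endothelial markers 6 were under 1 in each library, and ERG had 4.19 and 5.24 at mid anagen, against 0.884 and 0.333 at early anagen. Of 6 immune markers 4 were under 1 in each library, with CD68 between 2.40 and 4.41 and CD79A between 1.22 and 1.46. Of 6 melanocyte markers 4 were under 1 in each library, and of 5 muscle and pericyte markers 2, with ACTA2 between 34.0 and 52.4. The 10 fibroblast markers that were looked up summed to 172 and 47.0 in the mid female and mid male libraries, against 0.992 and 2.68 in the early female and early male libraries, and 10 of 10 were higher in both mid libraries. Of these, PDGFRA and TWIST1 were under 1 in each library, and limma called 0 of the 7 that could be tested. These 7 entered the test only through their mid libraries, so their direction in it was fixed by the filter. The 6 cycling-cell markers summed to 302 and 438 at mid anagen, against 683 and 747 at early anagen, and 6 of 6 were lower in both mid libraries. Of the 9 basal and follicle markers found, SOX9 and LHX2 were higher in both mid libraries, with LHX2 called, 3 were lower and 4 overlapped. The 9 summed to 19325 and 20399.7 at mid anagen, against 39239 and 43966 at early anagen, and most of each sum was KRT14 and KRT5, another basal keratin. KRT5 was at 7281 and 9234 at mid anagen, against 15892 and 18092 at early anagen, and limma called neither keratin. Many of these markers differed between the April and October libraries, and their part in the results below was not tested.

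BNIP3, which encodes a mitophagy receptor, was called lower at mid anagen. A further 5 members had lower values in both mid libraries than in both early libraries without passing the test. Those 5 were NDRG1, ADM, PDK1, EGLN3 and CA9. The other 4 members, HIF1A, EGLN1, BNIP3L and VEGFA, overlapped between the phases. In limma's moderated test on log2(value + 1), with Benjamini-Hochberg adjustment over 12486 genes and a threshold of 0.05, 1 of 10 members was called lower and 0 were called higher. Over all tested genes 0.0801% were called lower and 0.224% higher. At an unadjusted p under 0.05, 6 members were lower and 0 higher, against 14.7% and 13.2% of all tested genes. Groups without overlap and lower at mid anagen made up 30.9% of all tested genes, beside 6 of the 10 members. In bulk RNA, fewer cells of a type and less of a transcript per cell cannot be told apart.

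**Figure D1:**
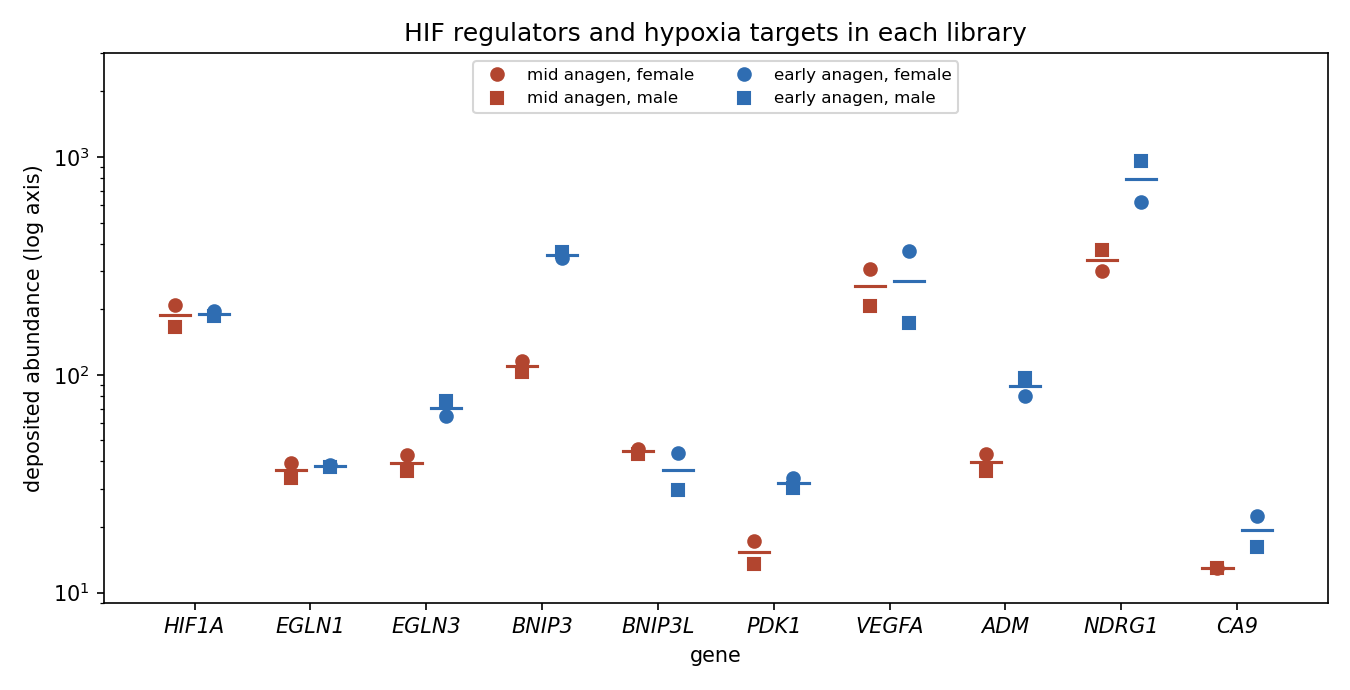
Deposited abundance (log axis) of the 10 members in the mid anagen libraries (red) and the early anagen libraries (blue), with circles for female, squares for male and a bar for the mean of each phase. BNIP3 lies at 103 and 115 at mid anagen, below 344 and 365 at early anagen, while the HIF1A points of the phases overlap.

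By level, the members ran from 12.9 for CA9 in the mid female library to 956 for NDRG1 in the early male library. In the order of mid anagen means, NDRG1 stood at 336 ± 52.5, VEGFA at 256 ± 70.5, HIF1A at 187 ± 31.3, BNIP3 at 109 ± 8.76 and BNIP3L at 44.5 ± 1.75 (SD, n = 2). After these came ADM at 39.7 ± 4.96, EGLN3 at 39.5 ± 4.77, EGLN1 at 36.5 ± 3.82, PDK1 at 15.4 ± 2.55 and CA9 at 12.9 ± 0.014. The mean ± SD ranges of neighbours overlapped from NDRG1 to HIF1A, from BNIP3L to EGLN1 and between PDK1 and CA9, so the ranges do not separate these neighbours. The ranges leave out that neighbours were measured in the same libraries. Within libraries NDRG1 was under VEGFA in the mid female library, and each other of these pairs kept its order in both mid libraries. At early anagen NDRG1 stood at 789 ± 236, followed by BNIP3 at 355 ± 14.5 and VEGFA at 271 ± 139, whose ranges overlapped, and the means of ADM and EGLN3 lay above those of EGLN1 and BNIP3L. The lowest placed member, CA9, was above 39.0% of all tested genes in the mid female library, and the highest placed, NDRG1, above 98.6% in the early male library.

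HIF1A (GeneID 100861391), the oxygen-regulated subunit, was at 209 and 165 in the mid female and mid male libraries, against 196 and 186 in the early female and early male libraries. Both early values lay between the mid values. The log2 fold change was -0.038 (SE 0.19, 95% interval -0.52 to 0.44, limma adjusted p = 0.914).

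EGLN1 (GeneID 102189459), the main oxygen sensor of the family, had 39.2 and 33.8 in the mid female and mid male libraries, against 38.5 and 37.6 in the early female and early male libraries. Its groups overlapped, with a log2 fold change of -0.063 (SE 0.15, 95% interval -0.44 to 0.31, adjusted p = 0.811). EGLN3 (GeneID 102179524), the hydroxylase that hypoxia induces, had 42.9 and 36.1 in the mid female and mid male libraries, against 64.8 and 76.1 in the early female and early male libraries. Both mid values were lower than both early values, and the difference did not pass (log2 fold change -0.82, SE 0.17, adjusted p = 0.0783). EGLN2 is the remaining hydroxylase of the family and was picked with its values known. It had 26.4 and 33.5 at mid anagen and 27.9 and 29.5 at early anagen.

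Among 23 genes listed for HIF subunits, oxygen sensors and HIF turnover, 21 could be tested, and limma called 0 in either direction, with 6 higher and 4 lower at an unadjusted p under 0.05. Their median log2 fold change was 0.013, where that of all tested genes was 0.011. At that unadjusted p, 13.2% of all tested genes were higher and 14.7% lower. These shares are also the ones to set beside the counts of each list below. EPAS1, which encodes the other main oxygen-regulated alpha subunit, was at 32.0 and 44.8 in the mid female and mid male libraries, against 21.2 and 19.1 in the early female and early male libraries (log2 fold change 0.88, SE 0.20, adjusted p = 0.0841). The HIF1A libraries overlapped between the phases and those of EPAS1 did not. With the libraries rescaled to a common total EPAS1 passed, at a log2 fold change of 1.21 (limma adjusted p = 0.0497). That rescaling called 4.53% of all tested genes higher.

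SIAH1, a ubiquitin ligase that targets prolyl hydroxylases, had 28.0 and 23.5 at mid anagen and 16.2 and 12.6 at early anagen (adjusted p = 0.0841). OS9, a lectin of the endoplasmic reticulum, had 99.5 and 88.4 at mid anagen and 60.1 and 57.9 at early anagen (adjusted p = 0.0845). RBX1, the RING subunit of the VHL ubiquitin ligase, ran the other way, with 60.3 and 60.6 at mid anagen and 92.1 and 112 at early anagen (adjusted p = 0.0834). None of these 3 overlapped between the phases and none passed as deposited. With the libraries rescaled to a common total, SIAH1 (limma adjusted p = 0.0469) and OS9 (0.0454) passed and RBX1 (0.138) did not.

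The direct partners of the pathway were picked with their values known, and none passed. ARNT was at 16.1 and 14.8 at mid anagen and 12.86 and 12.98 at early anagen. VHL was at 16.0 and 16.8 at mid anagen and 20.2 and 18.3 at early anagen. HIF1AN, which encodes the asparagine hydroxylase that blocks co-activator binding, was at 17.2 and 16.2 at mid anagen and 14.2 and 14.5 at early anagen. For these 3 genes the adjusted p lay between 0.318 and 0.374.

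BNIP3 (GeneID 102178036) had 115 and 103 in the mid female and mid male libraries, against 344 and 365 in the early female and early male libraries. The mid anagen mean was 30.8% of the early anagen mean, and the values within a phase lay close together. The log2 fold change was -1.69 (SE 0.17, 95% interval -2.12 to -1.27, limma adjusted p = 0.0431, n = 2 per phase), and it was -1.57 between the female libraries and -1.82 between the male libraries. By p-value BNIP3 ranked at place 27 of 12486 genes, and 0.4% of tested genes had a lower log2 fold change. The call ended without the early female library (adjusted p = 0.0869), without the early male library (adjusted p = 0.266), with a pseudocount of 0.1 (adjusted p = 0.0531) and with no filter on low values (adjusted p = 0.105). Over the 11 alternatives the adjusted p ran from 0.0118 to 0.266, and the log2 fold change from -1.77 to -1.35.

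BNIP3L (GeneID 102182224), the closest relative of BNIP3 and also a mitophagy receptor, had 45.7 and 43.3 in the mid female and mid male libraries, against 43.5 and 29.7 in the early female and early male libraries. The early female value lay between the mid values. The log2 fold change was 0.30 (SE 0.21, 95% interval -0.23 to 0.83, adjusted p = 0.395), and it was 0.57 without the early female library and 0.031 without the early male library. PDK1 (GeneID 102186251), a kinase that inhibits pyruvate dehydrogenase, had 17.2 and 13.6 in the mid female and mid male libraries, against 33.7 and 30.1 in the early female and early male libraries. Its mid mean was 48.2% of its early mean, with no overlap between the phases (log2 fold change -1.01, SE 0.17, adjusted p = 0.0724).

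Within each library the members were also set against each other, which takes out any factor common to the library. BNIP3 was 2.52 and 2.38 times BNIP3L in the mid female and mid male libraries, against 7.91 and 12.3 times in the early female and early male libraries. EGLN3 was 1.10 and 1.07 times EGLN1 at mid anagen, against 1.68 and 2.02 times at early anagen. PDK1 was 0.0821 and 0.0823 times HIF1A at mid anagen, against 0.172 and 0.162 times at early anagen. These 3 ratios were lower in both mid libraries than in both early libraries, and with 2 libraries a phase the exact two-sided permutation test gave 0.333 for each, the smallest p it can give. Each ratio sets a member seen lower without overlap over a member whose phases overlapped. Its direction thus largely follows from the choice of the pair and is a description. On the log2(value + 1) scale the differences were -1.99, -0.76 and -0.97 for the ratios of BNIP3 to BNIP3L, EGLN3 to EGLN1 and PDK1 to HIF1A. A ratio within a library shows that its genes changed unequally and not which of them changed.

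**Figure D2:**
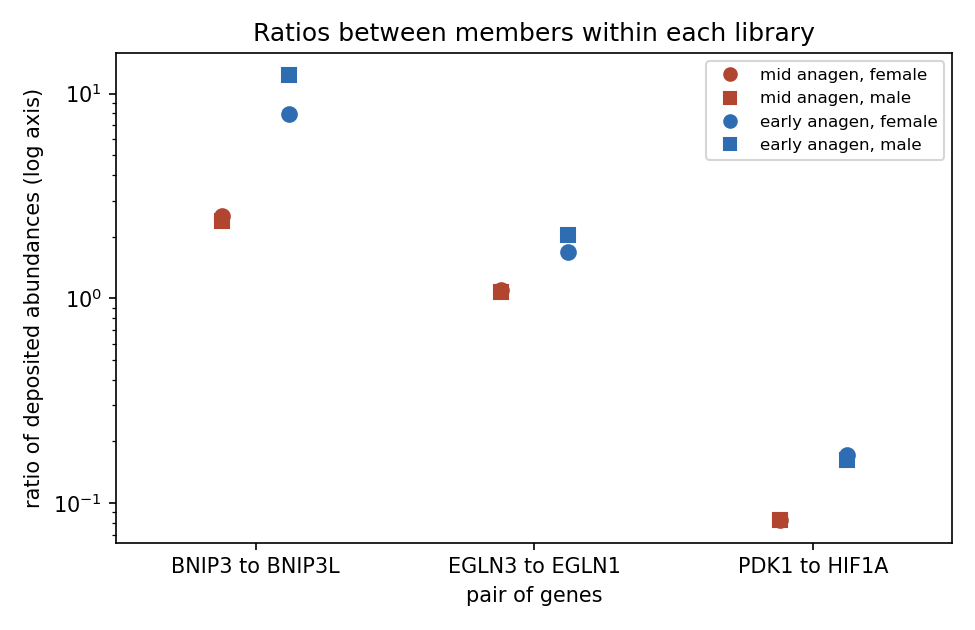
Ratio of the deposited abundances of 3 pairs of members (log axis) in the mid anagen libraries (red) and the early anagen libraries (blue), with circles for female and squares for male. The BNIP3 to BNIP3L ratio sits at 2.38 and 2.52 at mid anagen and at 7.91 and 12.3 at early anagen.

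Of 15 genes listed for mitochondrial and mitophagy targets, 13 could be tested. BNIP3 was called lower, 0 were called higher, and at an unadjusted p under 0.05 there were 4 lower and 2 higher. The list's median log2 fold change was 0.014. NDUFA4L2, a mitochondrial protein that hypoxia induces and that lowers respiration, had 75.8 and 26.0 in the mid female and mid male libraries, against 306 and 99.8 in the early female and early male libraries. Its libraries did not overlap between the phases, but the female library was also the higher one in each phase. With 1 library of each sex in a phase, sex cannot be told apart from other differences between libraries. The log2 fold change of NDUFA4L2, -1.95, had an SE of 0.68 (adjusted p = 0.146). In a limma fit with a term for the replicate number, which is also the sex, its adjusted p was 0.00504. That fit called 6.93% of all tested genes lower.

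Around PDK1, the genes of the pyruvate dehydrogenase switch ran in different directions without passing. PDHA1, the enzyme subunit that PDK1 phosphorylates, had 79.7 and 78.8 at mid anagen and 112 and 123 at early anagen (adjusted p = 0.1). PDP1, the phosphatase that undoes this step, had 8.25 and 10.03 at mid anagen and 5.69 and 6.15 at early anagen (adjusted p = 0.119).

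Glucose uptake and glycolysis, the textbook HIF programme, had 26 listed genes of which 25 could be tested. In limma 0 were called in either direction, while 11 were lower and 1 higher at an unadjusted p under 0.05. Of the 25, 18 were lower in both mid libraries than in both early libraries and 4 were higher, beside 30.9% and 31.5% of all tested genes. The median log2 fold change was -0.45. After rescaling the libraries to a common total it was -0.11, when the median of all tested genes was 0.32.

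GPI, the isomerase of glucose 6-phosphate, had 251 and 253 at mid anagen and 417 and 522 at early anagen (log2 fold change -0.89, SE 0.20, adjusted p = 0.0837). PFKFB3, whose product makes the activator of phosphofructokinase, had 21.1 and 22.9 at mid anagen and 33.1 and 35.4 at early anagen (log2 fold change -0.62, SE 0.14, adjusted p = 0.0841). PGAM1, a phosphoglycerate mutase, had 508 and 489.9 at mid anagen and 866 and 989 at early anagen (log2 fold change -0.89, SE 0.21, adjusted p = 0.0851). In each of these genes the phases did not overlap.

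SLC16A3, which exports lactate, had 80.7 and 76.3 at mid anagen and 132 and 124 at early anagen (log2 fold change -0.70, SE 0.15, adjusted p = 0.0811). PGK1, SLC2A1, LDHA, SLC2A3 and ENO2 were picked with their values known. The glucose transporter SLC2A1 was at 684 and 712 at mid anagen and 1309 and 1119 at early anagen, and LDHA, a lactate dehydrogenase listed as LDH-A, at 1133 and 900.1 at mid anagen and 1808 and 2134 at early anagen. PGK1, phosphoglycerate kinase, was at 632 and 543 at mid anagen and 999 and 1044 at early anagen. The transporter SLC2A3 had 15.9 and 10.4 at mid anagen and 9.04 and 10.2 at early anagen (limma adjusted p = 0.313). Its log2 fold change was 0.75 between the female libraries and 0.027 between the male libraries. The enolase ENO2 ran the other way at low values, with 2.94 and 2.67 at mid anagen and 1.85 and 0.998 at early anagen (adjusted p = 0.152). Glycolytic genes such as GAPDH often have near-identical processed copies in mammalian genomes, and reads shared with such copies cannot be placed with certainty.

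VEGFA (GeneID 100860957), the main growth factor for blood vessels, had 306 and 206 in the mid female and mid male libraries, against 369 and 172 in the early female and early male libraries. The female library was the higher one in both phases, and the mid values lay between the early values. The log2 fold change was -0.0062 (SE 0.41, 95% interval -1.03 to 1.02, adjusted p = 0.994). ADM (GeneID 102178091), the vasodilator peptide adrenomedullin, had 43.3 and 36.2 in the mid female and mid male libraries, against 79.7 and 97.1 in the early female and early male libraries. The phases did not overlap, the mid mean was 45.0% of the early mean, and the log2 fold change was -1.13 (SE 0.18, 95% interval -1.58 to -0.68, adjusted p = 0.0711). With the libraries rescaled to a common total ADM passed, at a log2 fold change of -0.80 (adjusted p = 0.0497).

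Of 16 genes listed for secreted vascular and growth factors, 11 could be tested, limma called 0, and 1 was lower and 0 higher at an unadjusted p under 0.05. That gene was ADM. The median log2 fold change was -0.17. TGFA, a ligand of the EGF receptor, had 84.7 and 80.8 at mid anagen and 97.9 and 104 at early anagen. VEGFC, a lymphatic growth factor, had 26.2 and 19.6 at mid anagen and 16.4 and 21.3 at early anagen.

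EDN1, the peptide endothelin, and IGFBP3, which binds insulin-like growth factors, differed between the libraries of a phase. EDN1 had 3.94 and 19.4 in the mid female and mid male libraries, against 9.64 and 30.7 in the early female and early male libraries. IGFBP3 had 278 and 533 in the mid female and mid male libraries, against 388 and 1095 in the early female and early male libraries. In both genes the male library was higher in each phase, and the adjusted p for phase was 0.504 for EDN1 and 0.417 for IGFBP3. With a term for the replicate number, which is also the sex, limma gave an adjusted p of 0.0288 for EDN1 and 0.104 for IGFBP3. EPO, the red cell hormone, and LEP, leptin, both picked with their values known, were listed at 0 in the 4 libraries.

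The receptors for these ligands were largely at low values. KDR, the main VEGFA receptor, was at 0.0353 and 0.391 in the mid female and mid male libraries, against 0.0201 and 0.00615 in the early female and early male libraries. FLT1, the decoy-like VEGF receptor, was at 0.0437 and 0.0748 at mid anagen, against 0.0237 and 0.00543 at early anagen, and FLT4, the receptor of lymphatic vessels, was listed at 0. These 3 and RAMP3, a subunit of the adrenomedullin receptor at 0.937 and 0.866 at mid anagen and 1.10 and 0.823 at early anagen, did not enter the test.

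The neuropilins, co-receptors of VEGF, were higher than KDR or FLT1 per length. NRP1 had 7.92 and 5.15 at mid anagen and 7.10 and 2.74 at early anagen, and NRP2 had 10.3 and 13.4 at mid anagen and 6.91 and 12.9 at early anagen. CALCRL, the core of the adrenomedullin receptor, had 1.86 and 2.35 at mid anagen and 2.33 and 0.913 at early anagen. Its partner RAMP2 had 14.0 and 7.93 at mid anagen and 16.2 and 12.4 at early anagen.

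RAMP1, the partner that turns CALCRL into a receptor for another peptide, had 1.45 and 0.337 at mid anagen and 1.16 and 0.255 at early anagen. ACKR3, a scavenging receptor that also binds adrenomedullin, was the highest of the receptors, with 52.5 and 88.1 at mid anagen and 56.2 and 130.5 at early anagen. Of the 10 receptors 6 could be tested, limma called 0, and 0 had an unadjusted p under 0.05. The phases overlapped in 6 of these 6.

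CA9 (GeneID 102178356), a carbonic anhydrase on the cell surface and a widely used marker of hypoxia, was the least abundant member. It had 12.93 and 12.95 in the mid female and mid male libraries, against 22.5 and 16.3 in the early female and early male libraries. Both mid values lay under the early ones (log2 fold change -0.53, SE 0.19, 95% interval -1.01 to -0.053, adjusted p = 0.153).

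CA12, a related surface enzyme, had a higher level per length than CA9 in each library, with 174 and 151 in the mid female and mid male libraries, against 297 and 327 in the early female and early male libraries (log2 fold change -0.94, SE 0.18, adjusted p = 0.0743). The bicarbonate carrier SLC4A4 ran the other way, with 3.03 and 2.15 at mid anagen and 1.16 and 1.11 at early anagen (adjusted p = 0.113). SLC4A7, another bicarbonate carrier, had 22.5 and 23.4 at mid anagen and 29.8 and 26.6 at early anagen. Of the 7 genes listed for pH and ion control 5 could be tested. In limma 0 were called, 2 were lower and 1 higher at an unadjusted p under 0.05, and the median log2 fold change was -0.28.

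NDRG1 (GeneID 102168471), a stress-responsive gene that hypoxia and differentiation induce, was the most abundant member by its mean in both phases. It had 299 and 373 in the mid female and mid male libraries, against 623 and 956 in the early female and early male libraries. The male library was the higher one in both phases, and the phases did not overlap. The mid mean was 42.6% of the early mean, with a log2 fold change of -1.21 (SE 0.28, 95% interval -1.91 to -0.50, adjusted p = 0.0851).

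Of 37 other listed hypoxia targets and stress regulators, 33 could be tested, limma called 0, and at an unadjusted p under 0.05 there were 7 lower and 4 higher, with a median log2 fold change of -0.0031. ANKRD37, a small ankyrin repeat gene known as a HIF target, had 6.81 and 5.05 at mid anagen and 15.1 and 17.3 at early anagen (log2 fold change -1.32, SE 0.19, adjusted p = 0.0639). MIF, an inflammatory cytokine, had 1004 and 813 at mid anagen and 2941 and 2618 at early anagen (log2 fold change -1.62, SE 0.27, adjusted p = 0.0724). The transferrin receptor TFRC had 19.8 and 21.7 at mid anagen and 32.1 and 36.5 at early anagen (adjusted p = 0.0808).

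SESN2, a stress-induced inhibitor of the growth kinase MTOR, ran the other way, with 83.4 and 65.4 at mid anagen and 49.7 and 36.1 at early anagen (adjusted p = 0.105). In these 4 genes the phases did not overlap, with ANKRD37, MIF and TFRC lower and SESN2 higher at mid anagen. None passed as deposited.

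Of 9 prolyl hydroxylases and matrix enzymes listed as induced by hypoxia, 8 could be tested, and limma called 0. At an unadjusted p under 0.05 LOX, LOXL2 and PLOD1 were higher and 0 were lower. The median log2 fold change was 0.29, and with a filter of 5, which leaves out LOX, it was 0.17. LOXL2, a collagen cross-linking oxidase, had 38.0 and 24.9 at mid anagen and 9.58 and 5.38 at early anagen (log2 fold change 1.95, SE 0.31, adjusted p = 0.0711). Its relative LOX had 2.55 and 1.98 at mid anagen and 0.171 and 0.253 at early anagen (adjusted p = 0.07), and it entered the test only through its mid libraries, so its direction was fixed by the filter.

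PLOD1, a lysyl hydroxylase of collagen, had 20.2 and 19.0 at mid anagen and 14.7 and 14.2 at early anagen (adjusted p = 0.137). LOXL4 had 82.7 and 209 at mid anagen and 103 and 24.4 at early anagen, with overlap. The fibroblast markers given above were higher in both mid libraries in the same direction as LOX, LOXL2 and PLOD1, and their part in these values was not tested.

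**Figure D3:**
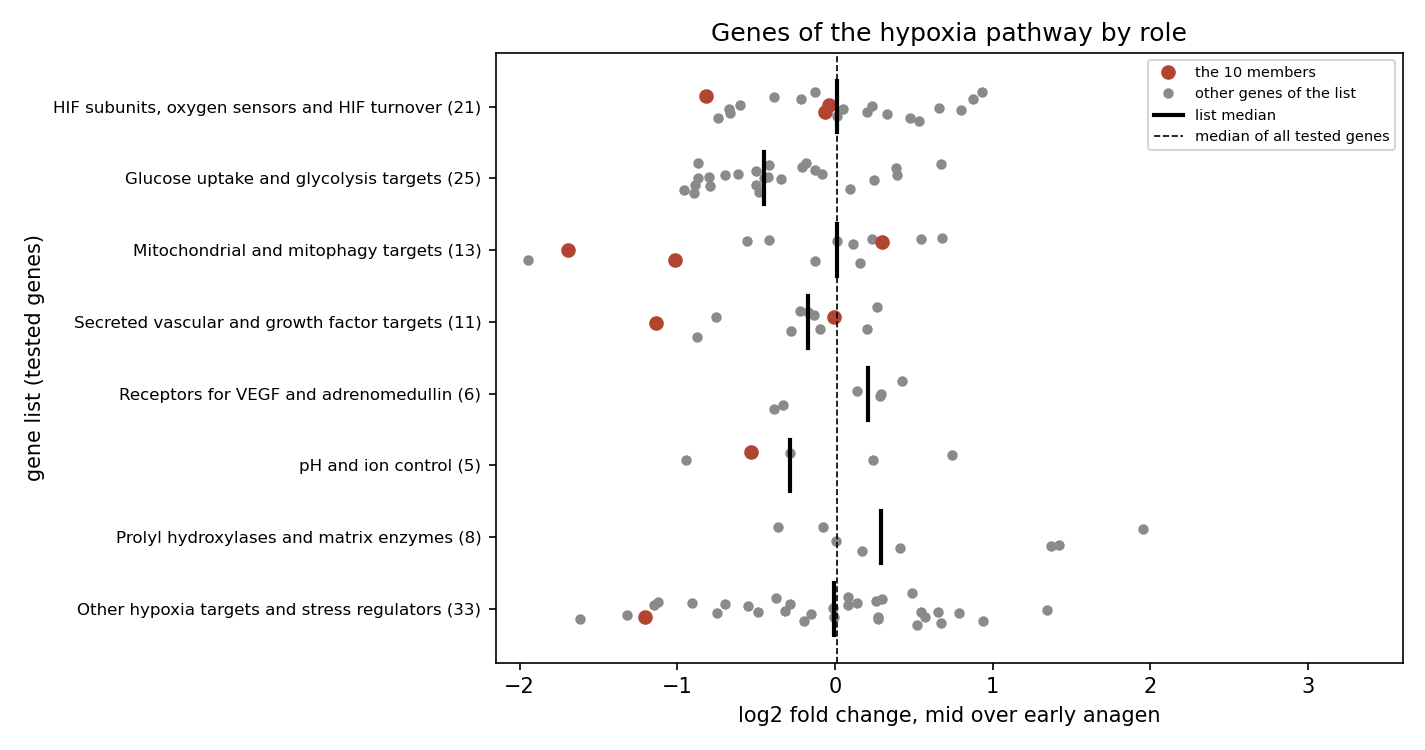
Log2 fold change of mid over early anagen (horizontal axis) for each tested gene of 8 gene lists by role, with the 10 members in red, the other genes in grey, a bar at each list's median and a dashed line at the median of all tested genes. The glycolysis list has its median at -0.45 and the prolyl hydroxylases and matrix enzymes, with LOX among them, at 0.29, and BNIP3 is the only gene shown that passed the test.

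Of the 143 listed genes 135 were found by symbol and 122 could be tested. Limma called 1 of the 122, BNIP3, with 29 lower and 17 higher at an unadjusted p under 0.05, against 14.7% and 13.2% of all tested genes. The members had a median log2 fold change of -0.68, where that of all tested genes was 0.011. Members were chosen with earlier results known, so this median is a description.

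The scale of the libraries mattered for the direction of some members. Rescaling each library to a common total shifted the all-gene median of the log2 fold change by 0.31, to 0.32, and the members' median to -0.35. HIF1A then had a log2 fold change of 0.30, EGLN1 of 0.27 and VEGFA of 0.34, near the shifted median, whereas BNIP3 had -1.35, NDRG1 -0.86, ADM -0.80, PDK1 -0.69, EGLN3 -0.48 and CA9 -0.21. Relative to the median of all genes, the same 6 members were thus lower and BNIP3L, at 0.63, higher under either scale. HIF1A and EGLN1 also lay below that median under either scale, though near it. VEGFA lay just below it as deposited and just above it after rescaling. As deposited, limma called 38 genes of which 73.7% were higher, and after rescaling 648 of which 87.2% were higher, with BNIP3 and ADM as the called members beside a background of 0.665% called lower and 4.53% called higher. A further fit had a term for the replicate number, which is also the sex and which the labels do not tie to an animal or batch. In it 5 members were called lower, beside 6.93% of all tested genes called lower and 7.34% higher.

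**Figure D4:**
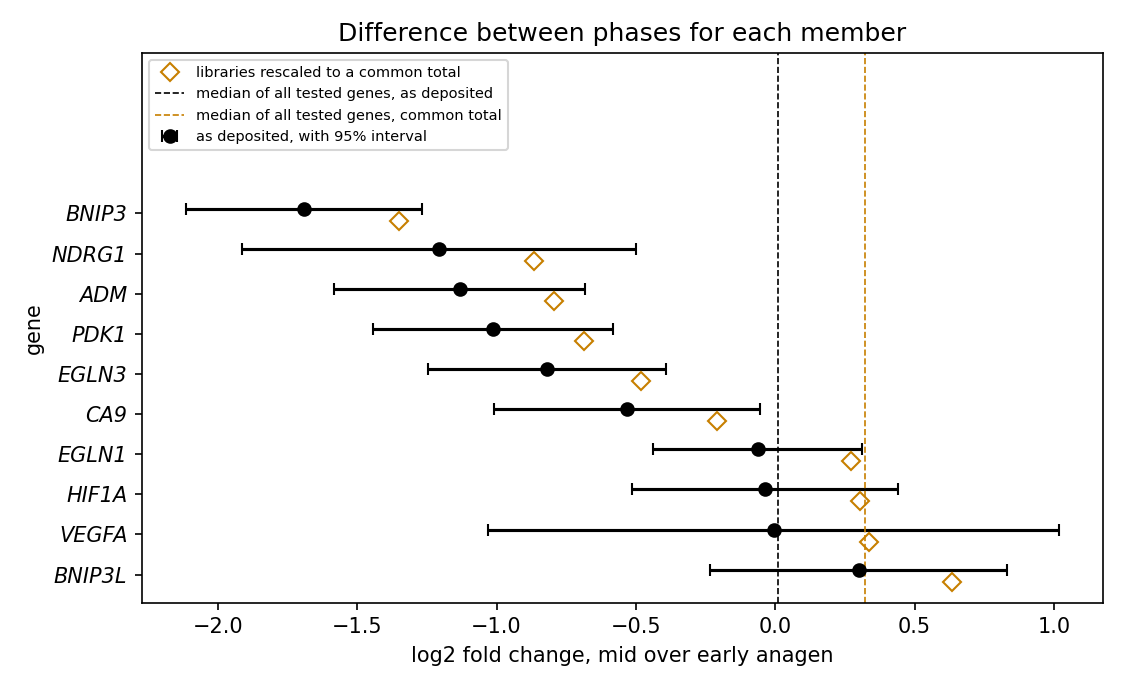
Log2 fold change of mid over early anagen for the 10 members, as deposited (black points with 95% intervals) and with libraries rescaled to a common total (open diamonds), with dashed lines at the median of all tested genes on each scale. BNIP3 lies at -1.69 as deposited and -1.35 rescaled, and HIF1A, EGLN1 and VEGFA lie close to the median line of their own scale.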

How the data were processed

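The deposited values are a signal per gene. Judged from the values themselves, they are not counts, and they do not sum to a fixed total. They were read as a length-normalised abundance because of the tools named next, and this reading was not tested. Per the submitters' processing notes, kallisto 0.46.1 and sleuth 0.30.0 were used. Build, annotation, gene-level summing and read depth were not given in the sources used here, so no coordinates or sequences are printed. Gene symbols were taken from the deposited tables, and 20294 of 20326 gene identifiers matched a RefSeq gene table (assembly ARS1.2), used for spans.

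The test was limma 3.58.1 under R 4.3.3 on log2(value + 1), with an intensity trend, phase as sole term and Benjamini-Hochberg adjustment. Fold changes are on that scale, which compresses changes at low values. A gene needed a value of 1 in 2 or more libraries, which 12486 met. On simulated data the share of false calls was above the adjusted threshold. This bears on the call of BNIP3, whose limma adjusted p of 0.0431 was close to that threshold.

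The members and lists were chosen with earlier results of these data known. In each list up to 4 other genes with the smallest unadjusted p were named, and each receptor. Of the genes this rule takes, 2 are not reported here by name. Any other gene is marked as picked with its values known. Alternatives were other pseudocounts (0.1, 5), omitting the filter or raising it to 5, a common total, removal of a lowess trend on gene span, a replicate block and leaving out each library.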

Additional observations from a re-analysis of the deposited data

Results flagged for a closer look

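Several genes had log2 fold changes of opposite sign between the female libraries (mid female over early female) and between the male libraries (mid male over early male). Each of these holds 1 library per phase, so the difference was not tested. Among the members, HIF1A had 0.092 for females and -0.17 for males, beside a standard error of 0.19 for its fold change. EGLN1 had 0.024 for females and -0.15 for males, beside a standard error of 0.15. VEGFA had -0.27 for females and 0.26 for males. EGLN2, a relative of EGLN1, had -0.078 for females and 0.18 for males. The adrenomedullin receptor gene CALCRL had -0.22 for females and 0.81 for males. VEGFC had 0.65 for females and -0.11 for males. LOXL4 had the widest gap of these genes, at -0.32 for females and 3.05 for males.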

How the results depend on the processing

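Over 11 alternatives, or 10 for the 7 genes that a filter of 5 removed, 44 of 57 genes had the same direction each time, BNIP3, NDRG1, ADM, PDK1, EGLN3, CA9 and BNIP3L among them, and so did the 3 ratios in their 18 repeats. The direction of these ratios largely followed from the pairs chosen. Counts of calls depended on the setting. Over all genes 38 were called as deposited, 18 with a pseudocount of 0.1 (3471 at an unadjusted p under 0.05), 0 with no filter (3843), 648 after rescaling to a common total and 0 to 733 with 1 library left out, where the lone library of a phase is assumed to vary like the others. The 733 came without the mid female library, 370 without the mid male, and 0 without the early female (2897 at an unadjusted p under 0.05) or early male library (1445). For the members these counts were 1, 0, 0, 2 and 0 to 3, and for the pathway lists 1, 0, 0, 10 and 0 to 11. With a term for the replicate number (replicate block), limma called 1782 genes, 25 of the listed genes and 5 members, namely BNIP3, PDK1, ADM, NDRG1 and EGLN3. Of the listed genes 16 were called lower and 9 higher in that fit, beside 6.93% and 7.34% of all tested genes. After rescaling to a common total, 4 listed genes were called lower and 6 higher, beside 0.665% and 4.53% of all tested genes. EPAS1, SIAH1, OS9, LOXL2 and LOX were among those called higher, and BNIP3, ADM, ANKRD37 and MIF were those called lower. The block also moved NDUFA4L2 to an adjusted p of 0.00504 and EDN1 to 0.0288. The replicate number is also the sex and no label ties the animals, so it was not taken as pairing, although the female-to-male differences of the phases correlated at 0.29 over genes. Rescaling raised log2 fold changes in general, with the all-gene median going to 0.32, and the sign became positive for HIF1A (0.30), EGLN1 (0.27), VEGFA (0.34), ACKR3 (0.011), SLC4A7 (0.045), TGFA (0.059) and VHL (0.11). Of these, all but VEGFA lay below the all-gene median on both scales. The list medians of secreted factors (0.12), pH and ion control (0.045) and other targets (0.33) also became positive. Those of secreted factors and of pH and ion control lay below the all-gene median on both scales. That of other targets went from just below it to just above it. VEGFA was also positive (0.047) with the span trend removed. With 1 library left out, log2 fold changes ran from -0.21 to 0.13 for HIF1A, from -0.17 to 0.041 for EGLN1, from -0.56 to 0.54 for VEGFA, from -0.12 to 0.22 for EGLN2, from -0.93 to 0.27 for ACKR3, from -1.90 to 0.15 for EDN1, from -0.30 to 0.58 for RAMP1, from -0.13 to 0.99 for NRP1, from -0.12 to 0.69 for NRP2 and from -0.10 to 0.69 for CALCRL. Without a change of sign, CA9 ran from -0.76 to -0.31 and NDUFA4L2 from -2.75 to -1.14. List medians ran from -0.21 to 0.18 for mitochondrial targets, from -0.32 to -0.013 for secreted factors, from -0.12 to 0.21 for receptors, from 0.18 to 0.45 for prolyl hydroxylases and matrix enzymes, from 0.0029 to 0.11 for HIF subunits and turnover and from -0.066 to -0.0077 for other targets. The cause of the turns with a library left out or the span trend removed was not tested.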

Other observations

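A few further genes tied to low oxygen or glycolysis lay outside the lists and were chosen after their values were seen. HILPDA, a lipid droplet protein that hypoxia induces, was at 3.20 and 3.10 in the mid female and mid male libraries, against 4.76 and 4.99 in the early female and early male libraries (log2 fold change -0.50, SE 0.16, limma adjusted p = 0.132). LOC102187810, described as the liver type of phosphofructokinase, was at 66.2 and 89.2 at mid anagen, against 127 and 151 at early anagen (log2 fold change -0.84, SE 0.21, adjusted p = 0.09). HYOU1, a chaperone of the endoplasmic reticulum named for its induction by hypoxia, ran the other way, with 61.2 and 48.7 at mid anagen, against 38.7 and 46.3 at early anagen (adjusted p = 0.262). None of the 3 overlapped between the phases and none passed as deposited.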
